A study of Mus musculus with 8 samples.

Results

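Bone morphogenetic protein (BMP) and retinoic acid signals have been proposed to give cells along the cochlea their position between base and apex. The 7 genes described here are 2 BMP ligands (Bmp4 and Bmp7), 2 secreted antagonists (Fst and Chrdl1), 2 enzymes that make retinoic acid (Rdh10 and Aldh1a3) and 1 that breaks it down (Cyp26b1). They were chosen by symbol, as every probe set assigned to 1 of these genes alone, which gave 16 of the 34945 probe sets assigned to a single gene and 7 of 18193 genes. All 7 genes, and 15 of their 16 probe sets, lay above the filter on low values, so that 7 of the 13221 genes tested were members.

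The organ of Corti, where hair cells and supporting cells detect sound, was taken from mice at postnatal day 16 and parted into apex and base. Every mouse carried the transgene Tg(Atoh1-cre)1Bfri and the floxed allele Dicer1tm1Bdh. Controls were littermates with Atoh1-Cre;Dicer1(flox/wt), and conditional knockouts (cKO) had Atoh1-Cre;Dicer1(flox/flox), so that controls carried Cre and 1 floxed allele too. Dicer1 makes mature microRNAs, and the Atoh1 promoter and enhancer drive Cre mainly in hair cells, so most other cells of the samples would keep the gene. Region and genotype gave 4 groups (control apex, control base, cKO apex, cKO base) of 2 samples, with 1 array a sample. Per the series' design text, a replicate is the tissue of both cochleae of 1 mouse, and apex and base of the same genotype and number were taken as 1 mouse, which gives 4 presumed mice. The main test has no mouse term, so apex and base of 1 mouse enter it as separate samples. Its p-values measure the spread between the 2 samples of a group, pooled over the 4 groups.

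BMPs are secreted dimers that bind paired serine/threonine kinase receptors and act through Smad proteins. Follistatin and the chordin-like proteins bind ligands outside the cell and keep them from their receptors. Retinoic acid is made from vitamin A in consecutive oxidations, by retinol and then retinaldehyde dehydrogenases. It binds nuclear receptors and is cleared by enzymes of the Cyp26 family. Gradients of Bmp7 and of retinoic acid along the sensory strip are known from the embryonic chick, and Fst is known as an apically graded gene of the embryonic mouse cochlea. The present samples come from after the cochlea has formed, shortly after the onset of hearing.

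The arrays were marked by the region and by tissue carried along with it. Tectb, which encodes a tectorial membrane protein and marks the apical samples, had log2 signals of 12.52 to 13.48 in the apical and 5.71 to 8.71 in the basal samples. The hair cell gene Myo7a lay between 7.68 and 9.17 in all 8. Dct, a melanin enzyme of the strial pigment cells, was at 13.65 to 13.91 in 3 basal samples and at 5.96 in control base replicate 1, and it ran from 6.19 to 11.87 in the apex. Control base replicate 1 correlated less with its own replicate (r = 0.9280 over all probe sets) than with the other 6 samples (0.9371 to 0.9422), and the lowest value of any pair was 0.9098, between control apex replicate 1 and control base replicate 2. Control mouse 1 was the only mouse with high Xist, an X-inactivation transcript, at 12.54 and 12.39 against at most 8.23 elsewhere. Dicer1 itself ran from 9.04 to 9.57, and where its probes lie relative to the floxed exon is not given in the sources used here. In pieces of tissue like these, fewer cells of a type and less RNA per cell cannot be told apart.

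No member passed the test in any comparison. In limma, with Benjamini-Hochberg adjustment over 13221 genes, 0 of 7 members passed for base against apex over both genotypes, where 157 genes (1.19%) passed. In the cKO alone 0 of 7 passed, against 11 genes (0.0832%), and in controls alone 0 genes passed (0%). At an unadjusted p under 0.05, Cyp26b1 was the single member by its brightest probe set in each of these 3 comparisons, where 17.2%, 11.3% and 7.52% of all genes lay. The second probe set of Rdh10 also had an unadjusted p under 0.05 in each, as given below. Between genotypes 0 of 7 members passed in the apex or in the base, and 0 had an unadjusted p under 0.05, beside 2.19% and 3.12% of genes. For the dependence of base minus apex on genotype the count was 0 of 7 by either rule, beside 0% of genes after adjustment and 1.13% before it. With the presumed mouse as a block the count over both genotypes was 255 genes (fixed) or 527 (random), and that in the cKO 0 or 81, with 0 members in each. These counts moved with single libraries. Over both genotypes the count was 1518 without control base replicate 1 and 365 without control base replicate 2, and it was 0 without cKO apex replicate 1, cKO apex replicate 2 or cKO base replicate 1. Without cKO base replicate 2 it was 5, and without control apex replicates 1 or 2 it was 25 or 9. In the cKO the count was 315 or 316 without control base replicates 1 or 2, and 0 without any other single sample. In controls it was 551 without control base replicate 1, and in the base 37 genes differed between genotypes without control base replicate 2.

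**Figure D1:**
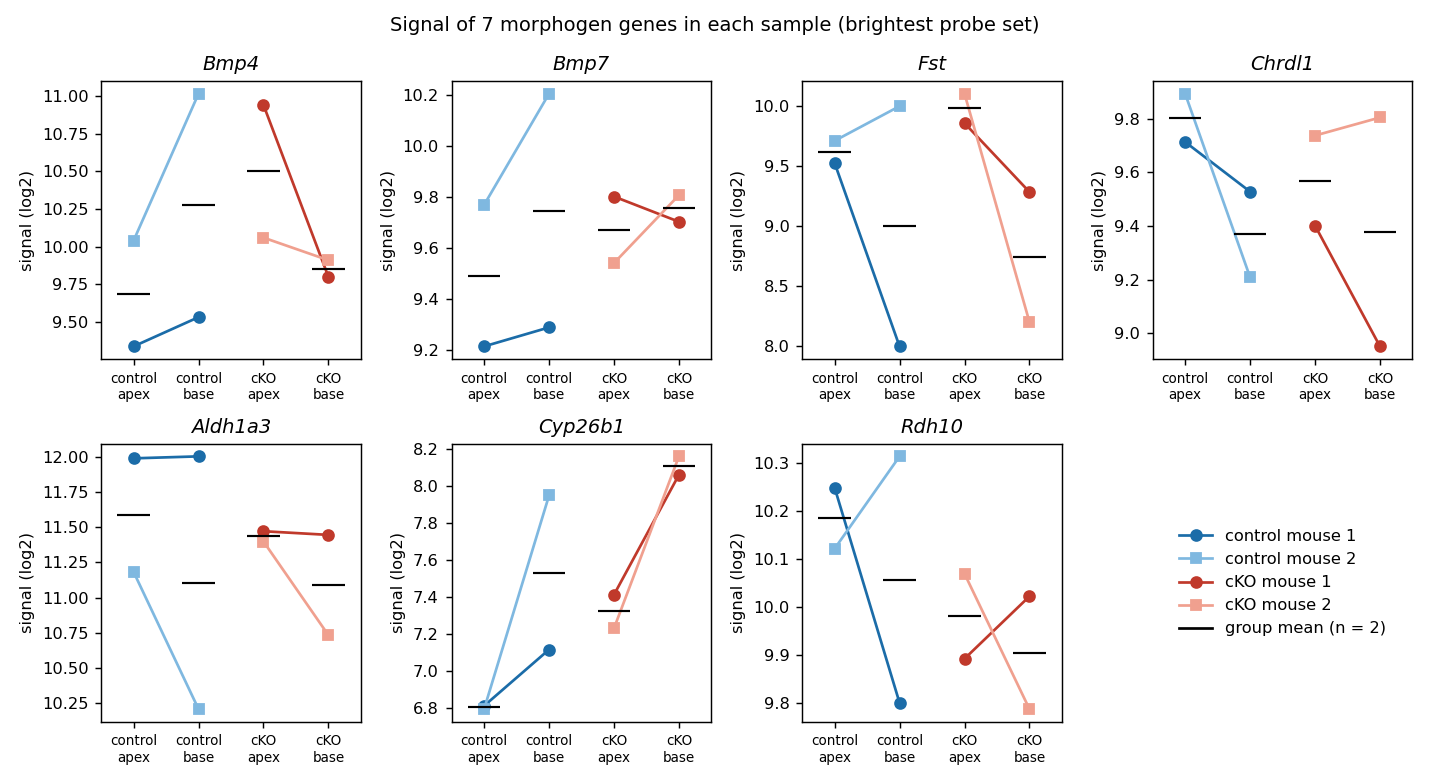
Log2 signal of the brightest probe set of each of the 7 genes in the 8 samples; a line joins apex and base of 1 presumed mouse, and black bars are group means of 2 samples. Cyp26b1 lies higher in the base than in the apex on all 4 lines, by 0.30 to 1.16, while the 2 control lines of Aldh1a3 and Bmp7 lie apart in both regions.

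**Figure D2:**
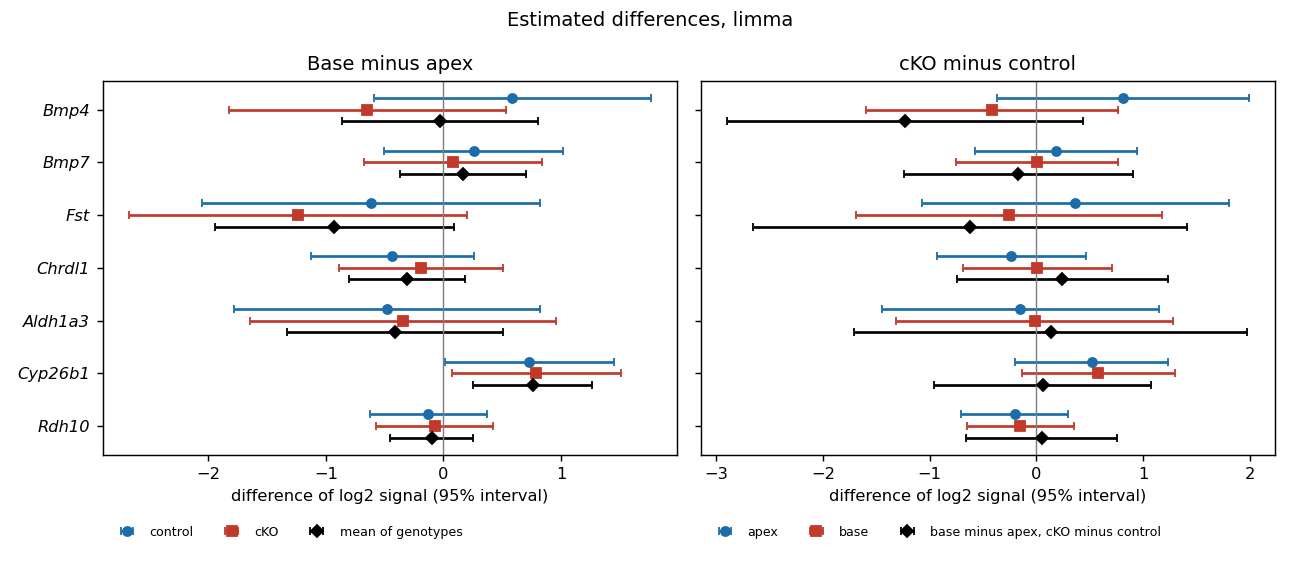
Differences of log2 signal with 95% intervals from limma, base minus apex on the left (control, cKO and the mean of both) and cKO minus control on the right (apex, base and the difference of the base minus apex values). Each gene is drawn from its brightest probe set. Of these, only the Cyp26b1 intervals on the left leave out 0 (0.01 to 1.45 in control, 0.07 to 1.51 in cKO, 0.25 to 1.27 for the mean), before adjustment over all genes. The second Rdh10 probe set, not drawn, left out 0 as well (-0.94 to -0.07, -1.05 to -0.19 and -0.87 to -0.26 in the same order).

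Cyp26b1, the retinoic acid hydroxylase that clears the signal, was the single member whose brightest probe set differed in the same direction between base and apex in all 4 mice. Its signal (linear scale) was 112 and 111 in the control apex, 139 and 247 in the control base, 170 and 150.1 in the cKO apex, and 267 and 286 in the cKO base. The base was the higher region in 4 of 4 mice, by 1.23-fold and 2.23-fold in control mice 1 and 2 and by 1.57-fold and 1.91-fold in cKO mice 1 and 2. A higher value in the base of all 4 mice was shared by 16% of genes. Base and apex did not overlap within controls (17% of genes were higher in this way) or within cKO (23.2%), although control base replicate 1 lay below both cKO apex samples.

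Over both genotypes Cyp26b1 was 1.69-fold higher in the base (0.76 ± 0.22, log2 and SE, adjusted p = 0.1499, limma). The base minus apex difference was 0.73 ± 0.31 in control and 0.79 ± 0.31 in cKO, with a difference between them of 0.06 (95% interval -0.96 to 1.08). Without control base replicate 1, the basal sample with the lowest strial sum, the mean difference was 0.97. With any 1 sample left out it ran from 0.55 to 0.97, and over the other 10 alternatives from 0.70 to 0.90. The cKO samples were also above the controls without overlap, in the apex (0.52 ± 0.31; 15% of genes) and in the base (0.58 ± 0.31; 13.1% of genes), and neither difference passed (adjusted p = 0.9998 and 0.9999). The order of the group means was control apex, cKO apex, control base and cKO base, at log2 6.80 ± 0.01, 7.32 ± 0.13, 7.53 ± 0.59 and 8.11 ± 0.07 (SD, n = 2); cKO apex and control base overlapped.

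The summed markers of several tissues ran with Cyp26b1 over the 8 samples. The summed signal of 10 of 10 stria vascularis markers was 22241 and 15568 in the control apex, 16742 and 43778 in the control base, 16008 and 16750 in the cKO apex, and 44496 and 38656 in the cKO base. The 3 samples with the highest strial sums were the 3 with the highest Cyp26b1, and control base replicate 1 was low in both. Over the 8 samples of 4 mice, Cyp26b1 correlated with the strial sum at r = 0.852 (Spearman's rho 0.714), with that of fibrocyte markers (6 of 6 measured) at 0.815 (rho 0.952) and with that of bone markers (4 of 5) at 0.836 (rho 0.786). Without the 2 samples farthest from the median sum these were 0.741, 0.841 and 0.904. The supporting cell sum gave r = 0.766 (rho 0.810, and 0.708 without 2 samples). Taken singly, 6 of 9 supporting cell markers were lower in the base over both genotypes and 3 higher (median -0.73, log2). The endothelium sum gave 0.689 (rho 0.571, and 0.818 without 2 samples). The sums of hair cell, neuron and Schwann cell markers had negative correlations (r = -0.631, -0.611 and -0.205). Without 2 samples these were -0.697, -0.167 and 0.095, so the sign for Schwann cells did not hold. The fibrocyte sum ran from 70017 to 88118 in the control apex, 84778 to 97231 in the control base, 89164 to 96618 in the cKO apex and 98280 to 114156 in the cKO base. The bone sum ran from 11311 to 13838, 18012 to 21167, 10885 to 15034 and 22048 to 22945 in the same order. No marker was listed at 0. Genes below the filter had signals above 0 too (Lrat at 0.78 to 17.7). So this does not show, here or for the lists below, that a tissue was present. The part of these tissues in the Cyp26b1 difference was not tested.

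The bases just before the gene are shown for Cyp26b1 because its base and apex differed in the same direction in all 4 mice. The RefSeq promoter table (GRCm38.p6) held 2 of the 7 members, Bmp4 and Cyp26b1. For Cyp26b1 the 152 bases outside the annotated gene are chr6:84593909-84594060, minus strand, given 5′ to 3′ with a TATA box (TATAAA) in capitals.
Cyp26b1: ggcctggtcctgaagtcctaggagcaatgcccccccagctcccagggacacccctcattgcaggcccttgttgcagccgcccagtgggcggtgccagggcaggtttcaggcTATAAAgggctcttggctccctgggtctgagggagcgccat
Its first base is base 41 before the annotated gene, counting the last base shown as 1. The motif was searched on both strands, after the sequence had been seen, and 7.38% of 32851 promoter windows of that length hold it. These windows are the first 152 of the 250 bases before each listed start, and so stop short of it. That of Cyp26b1 has the same position, since its annotated gene begins upstream of its listed start. The motif is therefore farther from that start than from the annotated gene. The retinoic acid receptor core sites AGGTCA (in 8.56% of windows) and AGTTCA (in 7.86%) had no match in this window. Neither had the Smad elements GGCGCC (in 4.99%) and CAGACA (in 11.3%).

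Rdh10, the retinol dehydrogenase that makes retinaldehyde, gave different readings on its 2 probe sets. On the brighter 1 the signal was 1216 and 1114 in the control apex, 892 and 1272 in the control base, 950.3 and 1074 in the cKO apex, and 1039 and 884 in the cKO base. The regions overlapped in both genotypes, and base minus apex over both was -0.10 ± 0.15 (log2, SE, 95% interval -0.46 to 0.25). On the other probe set the apex had 935, 880.04, 1210 and 944, in the order control 1, control 2, cKO 1 and cKO 2, and the base had 661, 617, 679.6 and 709.98. There all 4 basal samples lay below all 4 apical samples, as for 6.4% of genes read from their brightest probe set, and the base was the lower in each mouse by 1.33-fold to 1.78-fold. That probe set gave -0.56 ± 0.13 over both genotypes (adjusted p = 0.1095 over 23332 probe sets, limma), with -0.51 in control and -0.62 in cKO. Its unadjusted p in limma was 0.002972 over both, 0.02732 in control and 0.01091 in cKO. Which transcripts each probe set detects was not analysed here. Between genotypes the brighter probe set gave -0.20 ± 0.21 in the apex and -0.15 ± 0.21 in the base, and the other 0.24 ± 0.19 and 0.12 ± 0.19. From low to high the groups were cKO base, cKO apex, control base and control apex on the brighter probe set (log2 9.90 to 10.18), and every neighbouring pair overlapped.

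**Figure D3:**
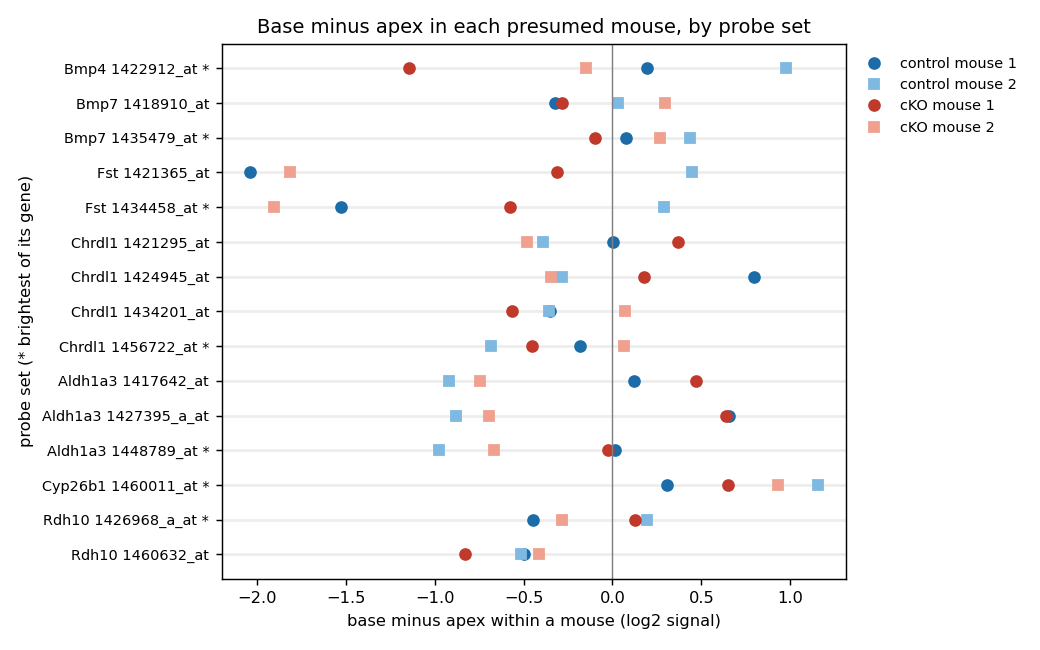
Base minus apex within each presumed mouse (log2 signal) for the 15 probe sets above the filter, with the brightest of each gene starred. All 4 mice lie to the right for Cyp26b1 and to the left for the second Rdh10 probe set (-0.83 to -0.41), and the 4 mice straddle 0 on every other probe set.

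Aldh1a3, a retinaldehyde dehydrogenase that makes retinoic acid, varied more between mice than between regions in controls, and about as much in cKO. Its signal was 4068 and 2326 in the control apex, 4108 and 1183 in the control base, 2841 and 2701 in the cKO apex, and 2790 and 1702 in the cKO base. Control mouse 1 was the highest in both regions, 1.75-fold above control mouse 2 in the apex and 3.47-fold in the base. The gap in the control base was wider than that of 95.3% of genes. The cKO mice lay 1.05-fold apart in the apex and 1.64-fold in the base. On this brightest probe set, apex and base of mouse 1 of either genotype differed by 1.02-fold at most. In mouse 2 of either genotype the base was lower, by 1.97-fold in control and 1.59-fold in cKO. Base minus apex over both genotypes was -0.41 ± 0.39 (log2, SE, 95% interval -1.33 to 0.51, adjusted p = 0.6247, limma). Without control base replicate 2 it was 0.035, and without control base replicate 1 it was -0.86. The 2 other probe sets, both above the filter, were also highest in control base replicate 1 (844 and 965) and at their lowest in control base replicate 2 (191 and 207). On them the base of mouse 1 was higher, by 1.09-fold and 1.57-fold in control and 1.39-fold and 1.56-fold in cKO. In mouse 2 of either genotype it was lower on both. Base minus apex over both genotypes was -0.27 ± 0.51 and -0.07 ± 0.47 on these probe sets. On the brightest probe set all 4 groups overlapped with their neighbours in the order cKO base, control base, cKO apex and control apex (means 11.09, 11.11, 11.44 and 11.59).

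The Aldh1a3 values followed the neuronal transcripts of the samples. The summed signal of 8 of 8 neuron markers was 55640 and 44992 in the control apex, 63406 and 20600 in the control base, 47769 and 47092 in the cKO apex, and 49081 and 32409 in the cKO base. The sample lowest in the sum, control base replicate 2, was the lowest in Aldh1a3, and the 2 samples of control mouse 1 were the highest in both. The correlation over the 8 samples was r = 0.972 (rho 0.976), and 0.943 without the 2 samples farthest from the median. It was the highest of the 84 pairs of a member and a marker list that were compared. No neuron marker was listed at 0, and the part of neuronal tissue in the Aldh1a3 values was not tested. The 3 genes most like Aldh1a3 over the 8 samples, out of 13220, were D130043K22Rik (r = 0.9945), Unc80, a subunit of a sodium leak channel complex (0.9924), and Rufy3, a protein of growing axons (0.9918).

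Bmp4, a BMP ligand made in the embryonic cochlea beside the sensory domain, had opposite regional directions in the 2 genotypes, a difference that did not pass the test. Its signal was 646 and 1052 in the control apex, 739.5 and 2071 in the control base, 1966 and 1067 in the cKO apex, and 890.2 and 961 in the cKO base. The base was higher in both control mice, by 1.14-fold and 1.97-fold, and lower in both cKO mice, by 2.21-fold and 1.11-fold. The share of all genes with opposite directions in the 2 genotypes was not computed. The highest and the lowest sample were both controls. In the apex both cKO samples lay above both controls (15% of genes were higher in this way), and in the base the genotypes overlapped. Base and apex overlapped in control and not in cKO, where 25.6% of genes were lower in the base in this way. Base minus apex was 0.59 ± 0.51 in control and -0.65 ± 0.51 in cKO (log2, SE), which left -0.03 ± 0.36 over both (95% interval -0.86 to 0.80). The difference between these, -1.23 ± 0.71 (95% interval -2.90 to 0.44), did not pass (adjusted p = 0.9999, limma), and it was -0.49 without control base replicate 2. Without that sample base minus apex in control was -0.16, the same sign as in cKO. Between genotypes Bmp4 gave 0.81 ± 0.51 in the apex and -0.42 ± 0.51 in the base, where 1 control sample, control base replicate 2, set the sign: without it the basal difference was 0.32. The groups ran from control apex (9.69 ± 0.50) over cKO base (9.85 ± 0.08) and control base (10.27 ± 1.05) to cKO apex (10.50 ± 0.62), with every neighbouring pair overlapping.

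The bases before Bmp4 are shown because its 2 genotypes differed in direction, although that difference did not pass the test. These 250 bases are chr14:46390670-46390919, minus strand, GRCm38.p6, given 5′ to 3′.
Bmp4: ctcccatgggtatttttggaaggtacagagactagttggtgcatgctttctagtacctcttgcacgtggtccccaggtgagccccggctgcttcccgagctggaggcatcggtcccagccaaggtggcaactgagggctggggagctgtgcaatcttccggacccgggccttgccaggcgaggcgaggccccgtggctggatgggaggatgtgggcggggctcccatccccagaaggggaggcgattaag
No letters are in capitals, since none of the 5 motifs searched on both strands was found there. Of windows of that length, 14% hold the first receptor site named above and 11.8% the other, 9.59% and 17.1% hold the Smad elements, and 12.4% hold the TATA box. The stretch is 63.2% G and C, and that of Cyp26b1 65.1%.

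Bmp7, the ligand that is graded along the cochlea of the embryonic chick, differed little between regions here. Its signal was 594 and 873 in the control apex, 626 and 1182 in the control base, 893 and 745 in the cKO apex, and 834 and 896 in the cKO base. Control mouse 1 was below every other sample in both regions, and apart from the 1182 of control base replicate 2 the other samples lay within 745 to 896. Base minus apex was 0.26 ± 0.32 in control, 0.08 ± 0.32 in cKO and 0.17 ± 0.23 over both (95% interval -0.37 to 0.71). Between genotypes it was 0.18 ± 0.32 in the apex and 0.01 ± 0.32 in the base. The second probe set above the filter gave -0.07 ± 0.29 for base minus apex, and the third lay below the filter, at signals of 3.58 to 47.9. The 4 group means lay within 9.49 to 9.76, from control apex over cKO apex and control base to cKO base, and every neighbouring pair overlapped.

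Over the 8 samples Bmp7 ran with Bmp4 (r = 0.837, rho 0.762) and against Aldh1a3 (r = -0.926, rho -0.810). It correlated with the summed macrophage and leukocyte markers (6 of 6 measured) at r = 0.865, which fell to 0.557 without the 2 samples farthest from the median. With the neuron sum it correlated at -0.875 (-0.836 without 2 samples). Among other lists, red blood cells (2 of 4 measured) gave 0.785 (0.764 without 2 samples). In the same way fibrocytes gave 0.254 (0.871), and tectorial and spiral limbus 0.416 (-0.963). The leukocyte sum was 4716 and 7448 in the control apex, 4749.7 and 8020 in the control base, 5792 and 6389.7 in the cKO apex, and 7231 and 7508 in the cKO base. Its 2 lowest samples were those of control mouse 1, as for Bmp7. No such marker was listed at 0, and the part of these cells in the Bmp7 values was not tested. All these points share 4 mice and 1 scaling of each array.

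**Figure D4:**
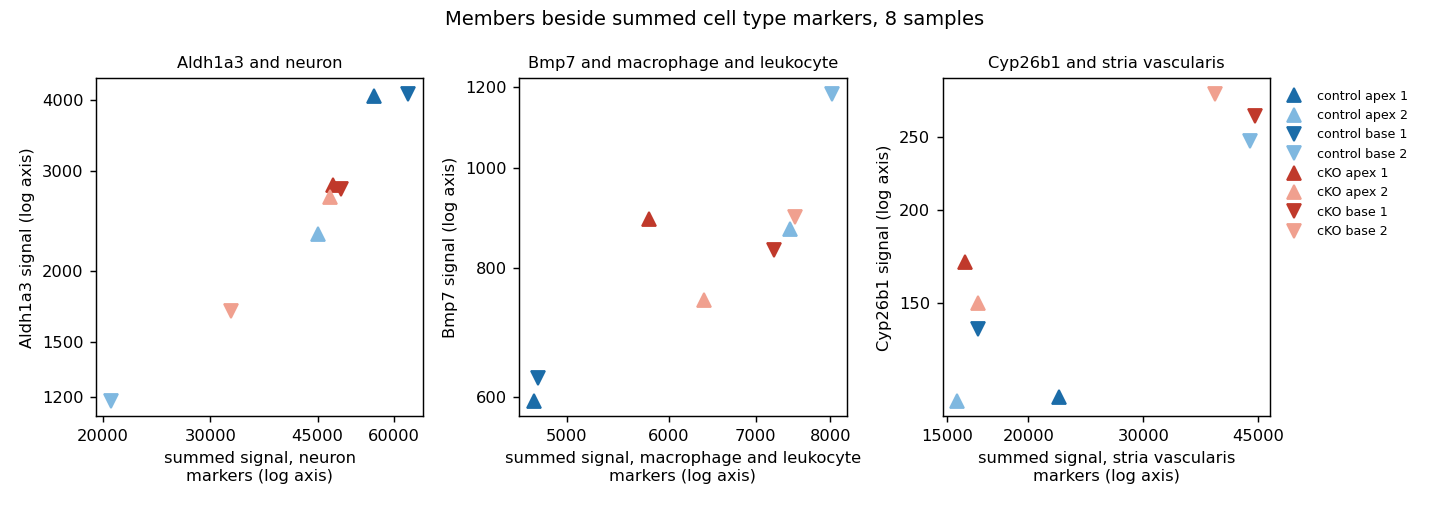
Signals of Aldh1a3, Bmp7 and Cyp26b1 in the 8 samples against the summed signal of neuron, macrophage and leukocyte, and stria vascularis markers (both axes logarithmic; upward triangles are apex, downward triangles base). Aldh1a3 climbs with the neuron sum from 1183 to 4108, and the 3 basal samples with strial sums of 38656 or more hold the 3 highest Cyp26b1 signals.

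Fst (follistatin), which binds activins and BMPs, was the lower in the base in 3 of 4 mice. Its signal was 736 and 836 in the control apex, 255 and 1022 in the control base, 926 and 1098 in the cKO apex, and 622 and 293 in the cKO base. The 4 apical samples stayed within 736 to 1098, while the basal samples spread from 255 to 1022. The base was below the apex by 2.89-fold in control mouse 1, 1.49-fold in cKO mouse 1 and 3.74-fold in cKO mouse 2, and above it by 1.22-fold in control mouse 2. In cKO the regions did not overlap (25.6% of genes were lower in this way), and in control they did. Over both genotypes base minus apex was -0.93 ± 0.44 (log2, SE, 95% interval -1.95 to 0.09, adjusted p = 0.3309, limma), a 1.90-fold lower level, and the second probe set gave -0.93 ± 0.48. Without control base replicate 2 it was -1.43 with adjusted p = 0.03286, and without control base replicate 1 it was -0.43. The summed signal of hair cell markers (9 of 12 measured) was 7029.9 and 7010.0 in the control apex, 5019.6 and 5654 in the control base, 8380 and 7041 in the cKO apex, and 4591 and 4855 in the cKO base, lower in all 4 basal samples than in any apical one. Of the marker lists compared, this sum had the highest correlation with Fst over the 8 samples (r = 0.677, rho 0.690). Without the 2 samples farthest from the median it was 0.805. On that reading the neuron sum gave -0.862 and the endothelium sum -0.788, beside -0.251 and -0.342 over the 8 samples. No hair cell marker was listed at 0, and the part of hair cells in the Fst values was not tested.

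The genotypes of Fst gave 0.36 ± 0.62 in the apex and -0.26 ± 0.62 in the base, and the 2 basal samples were farther apart than those of 96.7% of genes in control and 97.5% in cKO. From low to high the groups were cKO base (8.74 ± 0.77), control base (9.0 ± 1.42), control apex (9.62 ± 0.13) and cKO apex (9.98 ± 0.17). Neighbours overlapped, save that cKO apex lay above control apex without overlap, as did 15% of genes.

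Chrdl1 (chordin-like 1), an X-linked BMP antagonist, had signals of 839 and 951 in the control apex, 738 and 592 in the control base, 676 and 853 in the cKO apex, and 495 and 894 in the cKO base. Apex and base did not overlap in controls (16.9% of genes were lower in the base in this way), and they overlapped in cKO. The base was lower in 3 of 4 mice, by 1.14-fold to 1.61-fold, and higher by 1.05-fold in cKO mouse 2. Base minus apex was -0.43 ± 0.30 in control, -0.19 ± 0.30 in cKO and -0.31 ± 0.21 over both (95% interval -0.81 to 0.18). The next brightest probe set gave -0.30 ± 0.20 over both, and the other 2 gave 0.09 ± 0.35 and -0.12 ± 0.26. Between genotypes Chrdl1 gave -0.23 ± 0.30 in the apex and 0.01 ± 0.30 in the base. Its groups ran from control base (9.37 ± 0.23) and cKO base (9.38 ± 0.60) to cKO apex (9.57 ± 0.24) and control apex (9.80 ± 0.13), and each overlapped the next.

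The 3 genes most like each other member over the 8 samples were chosen as the highest Pearson r among 13220 genes, which is a description of these samples. For Cyp26b1 they were the semaphorin receptor Plxnb1 (0.9952), the endolysosomal channel Tpcn1 (0.9753) and Pkd1, polycystin-1 (0.9752). For Bmp4 they were Rab40c (0.9706), Morn2 (0.9676) and Aldh1a1, a further retinaldehyde dehydrogenase (0.9572). For Bmp7 they were Ap3s1 (0.9753), Tapbpl (0.9705) and the amino acid transporter Slc7a10 (0.9682). For Fst they were Tcaf2 (0.9884), the cilium transport gene Ift52 (0.9688) and the ribosomal gene Rps25 (0.9554). For Chrdl1 they were the dynactin subunit Dctn6 (0.9666), Rab3d (0.9545) and Zfp326 (0.9530), and for Rdh10 Prl2a1 (0.9763), the GABA receptor subunit Gabrp (0.9716) and Mfsd12 (0.9243).

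The wider pathways were read from 7 lists with 103 genes, of which 76 were tested. Over both genotypes 1 was higher and 1 lower in the base past the threshold, and 16 of 76 (21.1%) had an unadjusted p under 0.05, against 17.2% of all genes. Eng (endoglin), a co-receptor for BMPs and related ligands made mainly by endothelium, was 2.07-fold higher in the base (1.05 ± 0.16, log2, SE, adjusted p = 0.03642, limma). Its signal was 1175 and 830.02 in the control apex, 2249.5 and 2085 in the control base, 1206 and 909 in the cKO apex, and 1902 and 2221 in the cKO base, with no overlap of the regions. The endothelial markers, 5 of 5 measured, summed to 2006 to 2543 in the apex and 2958 to 4170.1 in the base, and their part in the Eng difference was not tested. Id4, an inhibitor of basic helix-loop-helix factors that BMPs can induce, was 1.77-fold lower in the base (-0.82 ± 0.14, adjusted p = 0.04482, limma). Its signal was 8732 and 8617 in the control apex and 11529 and 8820.3 in the cKO apex, against 4958 and 6592 in the control base and 4475 and 5362 in the cKO base. Markers of hair cells were lower in the base too, with all 8 tested below 0 and 2 called, and so were 6 of 9 of supporting cells, with 2 called, Sox2 (-1.37) and Jag1 (-1.19). Their summed signals were 4591 to 5654 against 7010 to 8380 for hair cells and 32170 to 40259 against 33430 to 38256 for supporting cells, base against apex, and their part in the Id4 difference was not tested. The Eng call was lost in 7 of 18 alternatives (adjusted p up to 0.1567), among them each single apical sample and each cKO base sample left out, and the Id4 call in 12 of 18 (up to 0.1947), among them the same 6 libraries and the mouse as a fixed block (0.05025).

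**Figure D5:**
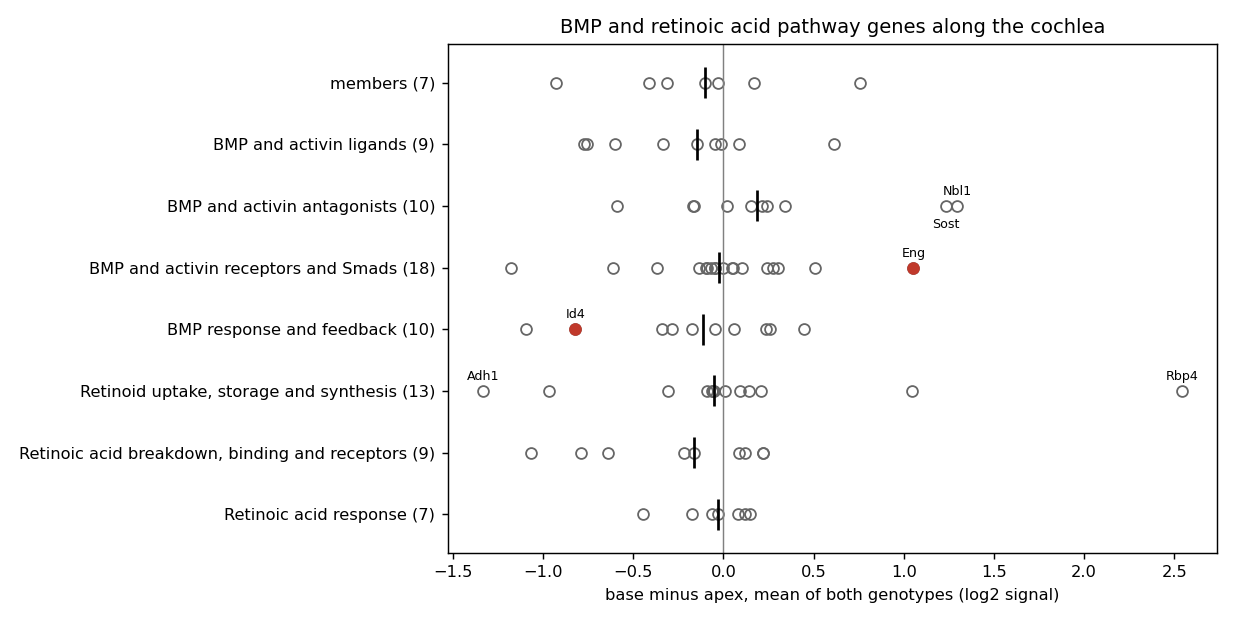
Base minus apex (log2 signal, mean of both genotypes) for the tested genes of the member list and of 7 pathway lists, with the number tested in brackets; filled points passed the adjusted threshold and bars are list medians. Eng lies at 1.05 and Id4 at -0.82, and no list median is farther from 0 than 0.19.

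Among other BMP and activin ligands 0 of 9 tested passed (median -0.15); Bmp8a gave 0.61 ± 0.15 and the activin subunit Inhba -0.78 ± 0.27, with the same direction in all 4 mice for each, as for 16% of genes higher and 17% lower in the base. Bmp8a had adjusted p = 0.1034 in limma, 0.09537 with the mouse as a fixed block and 0.04906 with it as a random block. Among antagonists 0 of 10 passed (median 0.19). Nbl1, a secreted BMP antagonist, gave 1.30 ± 0.29, with adjusted p = 0.08203, and passed with the presumed mouse as a fixed block (adjusted p = 0.02741) or a random block (0.0311). The follistatin-like Fstl1 gave 0.34 ± 0.14. Of receptors and Smads 1 of 18 passed (Eng; median -0.03), and of response and feedback genes 1 of 10 (Id4; median -0.11).

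In retinoid uptake, storage and synthesis 0 of 13 passed (median -0.05). Rdh12, a retinaldehyde reductase, gave -0.97 ± 0.18, with adjusted p = 0.05995, 0.06668 with the mouse as a fixed block and 0.02722 with it as a random block, and Adh1, an alcohol dehydrogenase able to oxidise retinol, -1.33 ± 0.35. Adh1 had adjusted p = 0.1262 in limma, and passed with the mouse as a fixed block (0.02044) or a random block (0.0468). In breakdown, binding and receptors 0 of 9 passed (median -0.17); the retinoic acid carriers Fabp5 and Crabp2 gave -1.07 ± 0.30 and -0.79 ± 0.33, each lower in the base of all 4 mice, as were 17% of genes. Of retinoic acid response genes 0 of 7 passed (median -0.03), with Meis1 at -0.45 ± 0.19 and Tgm2 at -0.17 ± 0.19. The median of all 13221 genes was -0.02. Between genotypes 0 of 76 passed in the apex or in the base (unadjusted p under 0.05: 2 and 1), and 0 of 76 had a base minus apex difference that depended on genotype (0 at the unadjusted threshold).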

How the data were processed

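Affymetrix arrays of 8 samples were analysed. Per the labels' protocols, total RNA from the mirVana kit, 75 to 125 ng, was amplified and labelled in the 2-cycle procedure. The deposited values are an intensity (signal) per probe set on a linear scale; the submitters' processing notes name MAS5 and affy 1.26. Each array's mean after trimming 2% from either end is 500. Medians ran from 67.3 to 100.4, so no array was matched to another's distribution. For arrays, the number of samples limits the precision.

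From these, log2 values were taken with no pseudocount. Of 45101 probe sets, 64 were array controls, 34945 had 1 gene in the supplied annotation, 932 several and 9160 none listed; 34741 matched RefSeq genes by Entrez identifier. A gene was read from its brightest probe set. Testing was limited to genes whose mean log2 signal reached the 40th percentile, 5.274 (38.7 on the linear scale). limma 3.58.1 in R 4.3.3 was fitted to 4 group means, with an intensity trend (4 residual and 3.46 prior degrees of freedom); tests were two-sided at an adjusted 0.05. Errors after ± are SE for differences and SD (n = 2) for levels. Marker sums add linear signals.

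The mouse pairing comes from the design text. Across genes, the deviations of same-numbered apex and base samples from their group means correlated at r = 0.3392 in controls and 0.0683 in cKO. Named were the members, pathway genes past the threshold (or the 2 of smallest p in a list over both genotypes), Dicer1, Myo7a, Tectb, Dct, and the 3 genes most like each member; Xist, Sox2, Jag1, Aldh1a1, Aldh1a2 and Rbp4 were chosen after their values were seen. Members and lists were chosen with earlier results of these data known. On simulated data with 13221 genes, of 200 changed by a log2 value of 1, 44.7% were recovered for base against apex over both genotypes, 4.1% in controls, 8.2% in cKO, 4.2% and 0.7% for the genotypes in apex and base, and 0% for the difference. At a log2 value of 2 these were 87.3%, 70.9%, 72.9%, 72%, 68.3% and 45.3%.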

Additional observations from a re-analysis of the deposited data

Results flagged for a closer look

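Bmp4 was flagged by a fixed rule because the base was above the apex in both control mice (0.19 and 0.98, log2) and below it in both cKO mice (-1.14 and -0.15). The share of all genes that meet this rule was not computed, so the flag does not set Bmp4 apart. The difference between the genotypes was -1.23 (log2, SE 0.71), with an unadjusted p of 0.1256 and an adjusted p of 0.9999 in limma, so the difference did not pass the test. It ran from -1.98 to -0.49 when 1 sample was left out.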

How the results depend on the processing

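The member results, 42 in all, were recomputed under 770 alternatives, of which 719 kept direction and side of the threshold, 49 reversed and 2 passed the threshold (Cyp26b1 and Fst over both genotypes, each without 1 control base sample, as given above). Of the reversals, 42 came from leaving out 1 sample, and 13 results never reversed. Centring on the 75th percentile turned Bmp4 over both genotypes to 0.001 and Aldh1a3 between genotypes in the base to 0.021. Averaging the probe sets of each gene turned the genotype dependence of Bmp7 to 0.31 and of Rdh10 to -0.032, and cKO minus control in the apex to -0.25 for Bmp7, 0.047 for Chrdl1 and 0.017 for Rdh10. The cause was not tested.

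With 1 sample left out, base minus apex in control ran from -0.16 to 1.33 for Bmp4, -0.20 to 0.71 for Bmp7, -1.62 to 0.38 for Fst, -1.38 to 0.42 for Aldh1a3 and -0.38 to 0.13 for Rdh10. In cKO it ran from -0.047 to 0.21 for Bmp7, -0.62 to 0.24 for Chrdl1, -0.70 to 0.010 for Aldh1a3 and -0.19 to 0.041 for Rdh10. Over both it ran from -0.40 to 0.34 for Bmp4, -0.060 to 0.40 for Bmp7, -0.86 to 0.035 for Aldh1a3 and -0.23 to 0.026 for Rdh10. The genotype dependence ran from -0.63 to 0.29 for Bmp7, -1.62 to 0.38 for Fst, -0.18 to 0.67 for Chrdl1, -0.76 to 1.03 for Aldh1a3, -0.36 to 0.48 for Cyp26b1 and -0.20 to 0.31 for Rdh10. For cKO minus control in the apex the ranges were -0.10 to 0.46 for Bmp7 and -0.55 to 0.25 for Aldh1a3. In the base they were -1.16 to 0.32 for Bmp4, -0.45 to 0.47 for Bmp7, -1.26 to 0.75 for Fst, -0.42 to 0.44 for Chrdl1, -0.91 to 0.88 for Aldh1a3 and -0.41 to 0.10 for Rdh10.

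Counts of all genes past the threshold moved more. With 1 sample left out they ran from 0 to 551 for base against apex in control, 0 to 316 in cKO, 0 to 1518 over both, and 0 to 37 between genotypes in the base. The 11 genes in cKO became 0 with no filter, quantile normalization, centring, every probe set, no intensity trend or the mouse as a fixed replicate block, 6 with the mean of probe sets, 449 with the compared groups alone and 81 with a random block. The 157 over both became 98 with the mean of probe sets, 70 with no trend, 255 with a fixed and 527 with a random block. With no trend 1 gene differed between genotypes in the apex and 1 in the base. The replicate block changed no call of a member. With 2 samples a group, a 2-fold difference was seldom recovered on simulated data within 1 genotype or 1 region.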

Other observations

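Aldh1a2, the retinaldehyde dehydrogenase of much embryonic mesenchyme, varied widely between samples. Its signal was 683 and 1666 in the control apex, 393 and 4760.4 in the control base, 1106 and 731 in the cKO apex, and 2495 and 3559 in the cKO base. The 3 highest samples were the 3 basal samples with high strial sums, and control base replicate 1 was the lowest of all 8. Base minus apex over both genotypes was 1.04 ± 0.72 (log2, SE, adjusted p = 0.4987, limma). Rbp4, which carries retinol in blood, stood at 2668 in cKO base replicate 1 and between 33.9 and 233 in the other 7 samples. Aldh1a1 ran from 5317 to 9261, with its highest signal in control base replicate 2, the sample highest in Bmp4.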
